A study of Mus musculus with 2 samples.

Results

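Janus kinases (JAKs) and the genes that restrain them were examined in leukemic stem cells (LSCs) from mice with BCR-ABL-driven chronic myeloid leukemia (CML). The 10 genes are a list of symbols, with no threshold on their values but drawn up with earlier results of these data known, out of 23284 gene symbols in each library. They are the 4 kinase genes Jak1, Jak2, Jak3 and Tyk2, the SH2B adaptor genes Sh2b2 and Sh2b3, the phosphatase genes Ptpn6, Ptpn11 and Ptpn2, and Pias1. All 10 were found, and all 10 had at least 1 FPKM (a level of fragments divided by both transcript length and library size) in both libraries.

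The RNA came from 2 groups with 1 library each, WT and STAP-1 KO, so a difference between them has no replicate check and no p-value can be given. Donor cells were LSK cells (lineage-negative, Sca-1 and c-Kit positive) on a C57BL/6J background, and the STAP-1 KO donors carried a targeted disruption of the Stap1 locus. In both groups the donor cells had been infected with the same retrovirus, which drives human p210 BCR-ABL together with green fluorescent protein (GFP), and had been given to lethally irradiated congenic C57BL/6SJL recipients with helper marrow. Donor-derived GFP-positive LSK cells were sorted for sequencing on day 11. Mice were 8 to 14 weeks old, no drug is named for these cells, and the sources used here do not say how many mice were pooled. The retroviral promoter expresses BCR-ABL in every infected cell and its progeny at levels that can vary with the integration site, which limits the groups as a model of the human disease.

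JAKs are tyrosine kinases that sit on the inner tails of cytokine receptors. When a cytokine draws receptor chains together, the kinases phosphorylate each other on a pair of neighbouring tyrosines in the activation loop, then the receptor tails, and then the STAT transcription factors, which move to the nucleus. SH2B adaptors bind the phosphorylated kinase and either enhance or limit its activity. Tyrosine phosphatases remove the phosphate, and PIAS proteins bind activated STATs and add SUMO to them. In CML the BCR-ABL kinase phosphorylates STAT5, and JAK2 is activated by the growth factor receptors of the same cells.

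The stretch of coding sequence that carries the tyrosine pair is shown for the 4 kinases, since its phosphorylation switches the kinases on. The sequences are 30 bases each, 5′ to 3′ on the coding strand, read from GENCODE M21 transcripts of GRCm38, with the codons of both tyrosines in capitals. They lie at chr4:101156416-101156445 (minus strand, exon 22 of 25) for Jak1, at chr19:29302019-29302048 (plus strand, exon 22 of 25) for Jak2, at chr8:71686073-71686102 (plus strand, exon 21 of 25) for Jak3 and at chr9:21107888-21107917 (minus strand, exon 22 of 25) for Tyk2.
Jak1: accgataaggagTACTACacagtcaaggac
Jak2: caggacaaagaaTACTACaaagtaaaggag
Jak3: ctgggaaaggacTACTACgtggtccgcgag
Tyk2: gaaggccacgagTACTACcgagtgcgcgag
The same 6 bases encode the pair in all 4 genes, at codons 1007 and 1008 of Jak2. Jak1 and Jak2 were the most alike of the 6 pairs, with 21 of 30 bases identical, and Jak1 and Tyk2 the least, with 16.

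Of the tyrosine phosphatase genes, Ptpn6, which encodes SHP-1, and Ptpn11, which encodes SHP-2, are shown, and Ptpn2 is not. The catalytic cysteine of SHP-1 and SHP-2, on which dephosphorylation depends, is shown in the same way with its codon in capitals. The stretch crosses the junction of exons 11 and 12 in both genes, within chr6:124722060-124724967 (minus strand) for Ptpn6 and chr5:121143611-121144540 (minus strand) for Ptpn11.
Ptpn6: gtgcatTGCagcgctggcatcggccgcacg
Ptpn11: gttcacTGCagcgctgggattggccggaca
The 2 stretches shared 24 of 30 bases.

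Stretches of 75 bases, the length of a read, were shared with other annotated genes only for Jak3 (8.37% of its stretches, with Insl3) and Ptpn6 (5.68%, with Gm20531).

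Some facts of the whole comparison touch every value below. Stap1, the disrupted gene, had 62.0 FPKM in WT and 0.309 FPKM in STAP-1 KO. The sorting antigen genes Kit (468 and 30.1 FPKM) and Ly6a (285 and 106 FPKM) were both lower in STAP-1 KO. Effective depths, read from the steps between low FPKM values, were 7500000 reads for WT and 10470000 reads for STAP-1 KO. Of 9 mast cell and basophil markers, 8 were lower by 2-fold or more in STAP-1 KO and their summed level was 51032 FPKM in WT and 5268 FPKM in STAP-1 KO. All 5 granulocyte progenitor markers were at least 2-fold higher, with sums of 564 and 4623 FPKM. Of 8 stem and LSK cell markers, 4 were lower and 1 was higher (1049 and 348 FPKM in sum). The lower ones included Kit and Ly6a themselves, and Hlf at 0.318 and 0.140 FPKM on only about 13 and 8 estimated reads. Neutrophil markers (4 of 6 lower, 395 and 158 FPKM) and macrophage and dendritic cell markers (3 of 6 lower and 1 higher, 134 and 39.0 FPKM) were smaller in sum in STAP-1 KO, and erythroid (1 of 6 lower and 1 higher, 2632 and 1913 FPKM) and megakaryocyte markers (2 of 5 lower and 1 higher, 194 and 130 FPKM) were as well. T cell markers summed to 15.0 and 48.6 FPKM (1 of 5 lower and 3 higher) and NK cell markers to 1.73 and 0.155 FPKM, none of the 3 compared. The B cell markers Ebf1 and Pax5 were listed at 0 in both libraries, Ms4a1 had 0.505 and 0.0517 FPKM, and Cd79a was listed at 0 in WT and had 0.171 FPKM in STAP-1 KO. The part of these cell types in the values of the 10 genes was not tested, and in sorted bulk RNA fewer cells of a type cannot be told apart from less RNA per cell.

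Of the 10 genes, 4 were lower in STAP-1 KO by 2-fold or more (Jak1, Jak2, Tyk2 and Sh2b3) and 0 were at least 2-fold higher. Once transcript length and GC content were corrected for, Tyk2 no longer passed and Ptpn2 did. Beside them, 22.9% of the 12507 genes with at least 0.1 FPKM in both libraries were lower and 12.3% were higher by this rule, and 19.3% and 10.6% of the 10108 genes with at least 1 FPKM in both libraries. As deposited, neither the phosphatase genes among the 10 nor Pias1 passed the cut-off. Outside the 10 genes, 6 of 12 compared PTPN phosphatase genes were lower and 1 was higher. Of 4 receptor-type phosphatase genes 2 were lower and 0 higher, and Pias3 was lower while Pias2 and Pias4 were not. The median log2 ratio, log2((STAP-1 KO + 0.1)/(WT + 0.1)) throughout, was -1.81 for the 4 kinases and -0.14 for the 3 phosphatases, beside -0.04 for the 10974 genes whose mean reached 1 FPKM.

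**Figure D1:**
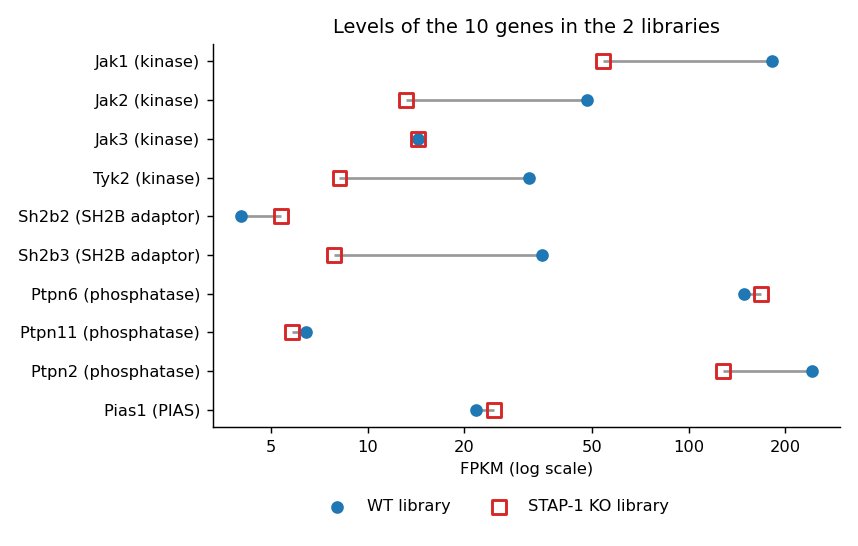
FPKM of each of the 10 genes in the WT library (filled circles) and the STAP-1 KO library (open squares) on a log axis, 1 library per genotype. The pairs of points lie far apart for Jak1, Jak2, Tyk2 and Sh2b3, while for Jak3 they coincide at 14.3 and 14.4 FPKM.

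Jak1, which pairs with most other JAKs on receptors for interferons, interleukins and the gp130 family, was the most abundant kinase (chromosome 4, 101152367 to 101265282, minus strand). Its level was 181 FPKM in WT and 54.0 FPKM in STAP-1 KO. It was 3.36-fold lower in STAP-1 KO, with a 95% interval from 3.21 to 3.51 that covers only the counting of about 6371 and 2654 estimated reads. Ranked among all genes of its own library, a measure that no scaling between libraries changes, Jak1 stood at place 507 in WT and at place 2318 in STAP-1 KO.

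Jak2, the kinase of the erythropoietin, thrombopoietin, IL-3 and GM-CSF receptors, lies on chromosome 19 (29251828 to 29313080, plus strand). It had 48.2 FPKM in WT and 13.1 FPKM in STAP-1 KO and was 3.68-fold lower (counting interval 3.36 to 4.02), on about 1742 and 663 estimated reads. Its rank was 2451 in WT and 5638 in STAP-1 KO.

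Tyk2, the partner of Jak1 at type I interferon and IL-10 receptors, lies on chromosome 9 (21104068 to 21131243, minus strand). It had 31.8 FPKM in WT and 8.17 FPKM in STAP-1 KO and was 3.89-fold lower (counting interval 3.47 to 4.38). The counting intervals of Jak1, Jak2 and Tyk2 lay wholly past 2-fold. With the length and GC correction the log2 ratio of Tyk2 was -0.96 in place of -1.95, which ended its call. An annotated antisense gene, 1700084C06Rik, shares 8.07% of the bases in all annotated exons of Tyk2, but no read-length stretch of the transcript used here.

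Jak3, which works only with the common γ chain of the IL-2 receptor family and is best known from lymphocytes, did not share this difference (chromosome 8, 71676296 to 71690575, plus strand). It had 14.3 FPKM in WT and 14.4 FPKM in STAP-1 KO. The log2 ratio was 0.01, and the counting interval of STAP-1 KO over WT ran from 0.882 to 1.14 on about 409 and 574 estimated reads. With the length and GC correction the log2 ratio was 0.59, outside that interval. Insl3, which shares 7.55% of the exon bases of Jak3 on the same strand, was listed at 0 in WT and at 2.69 FPKM in STAP-1 KO. The part of this shared stretch in the value of Jak3 was not tested.

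The balance among the kinases therefore differed between the libraries. Jak1 made up 65.7% of the summed FPKM of the 4 kinases in WT and 60.2% in STAP-1 KO, Jak2 17.5% and 14.6%, and Tyk2 11.5% and 9.11%. The share of Jak3 was 5.21% in WT and 16.1% in STAP-1 KO. In WT there was 3.36 times as much Jak2 as Jak3, and in STAP-1 KO 0.912 times as much. Among the 3 kinases that were lower, the proportions were closer, with 3.75 and 4.11 times as much Jak1 as Jak2 and 1.52 and 1.61 times as much Jak2 as Tyk2, the last being 1.15 with the length and GC correction.

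**Figure D2:**
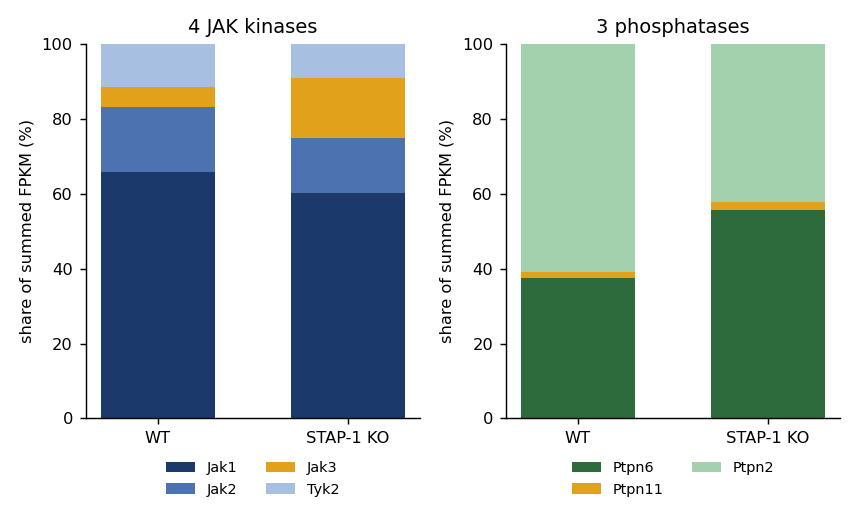
Share of each gene in the summed FPKM of the 4 JAK kinases (left) and of the 3 phosphatases (right), in percent, with 1 bar per library. The Jak3 segment is 5.21% of the WT bar and 16.1% of the STAP-1 KO bar, and Ptpn6 is 37.4% and 55.8% of the phosphatase bars.

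The SH2B adaptors went apart. Sh2b3, which encodes the adaptor LNK that restrains JAK2 and c-Kit signaling in stem and progenitor cells, is on chromosome 5 (121815488 to 121837646, minus strand). It had 35.0 FPKM in WT and 7.86 FPKM in STAP-1 KO, and its 4.46-fold lower level (counting interval 3.93 to 5.06) was the only value past 4-fold. That interval began below 4-fold, and with the length and GC correction the log2 ratio was -1.45 in place of -2.14, no longer past 4-fold. Atxn2, which shares 2.06% of its exon bases on the opposite strand, had 18.5 and 9.90 FPKM.

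Sh2b2 encodes the adaptor APS, which binds JAK2 and the insulin receptor (chromosome 5, 136218147 to 136246556, minus strand). It was the least abundant of the 10 genes in both libraries, with 4.04 FPKM in WT and 5.36 FPKM in STAP-1 KO. The ratio of STAP-1 KO to WT was 1.32 on about 80 and 148 estimated reads, and its counting interval ran from just under equality to 1.76. There was 8.66 times as much Sh2b3 as Sh2b2 in WT and 1.47 times as much in STAP-1 KO. The related gene Sh2b1, whose product enhances JAK2 activity, had 12.1 and 10.8 FPKM.

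Ptpn6, whose product SHP-1 is a brake on cytokine and c-Kit signaling in blood cells, was nearly level in the libraries (chromosome 6, 124720707 to 124738714, minus strand). It had 148 FPKM in WT and 168 FPKM in STAP-1 KO, a ratio of 1.13 with a counting interval from 1.08 to 1.20. Its rank was 669 in WT and 675 in STAP-1 KO. An antisense gene, Gm20531, shares 6.96% of its exon bases, and as no strandedness is given for the libraries, reads of this pair cannot be told apart there.

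Ptpn11, whose product SHP-2 differs from SHP-1 in that it promotes signaling to RAS and ERK, lies on chromosome 5 (121130533 to 121191397, minus strand). It had 6.41 FPKM in WT and 5.81 FPKM in STAP-1 KO. As deposited the ratio was 0.907, with a counting interval from 0.767 to 1.07 that included equality. With the length and GC correction the log2 ratio was 0.64 in place of -0.14. Per length there was 23.1 times as much Ptpn6 as Ptpn11 in WT and 28.9 times as much in STAP-1 KO, or 15.1 times with the length and GC correction.

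Ptpn2, which encodes the T cell phosphatase TC-PTP that dephosphorylates JAK1, JAK3 and STATs, lies on chromosome 18 (67665511 to 67724595, minus strand). It was the most abundant of the 10 genes in WT, with 242 FPKM, and had 128 FPKM in STAP-1 KO. Its level was 1.90-fold lower (counting interval 1.81 to 1.98), just short of the 2-fold cut-off. It passed with the length and GC correction, at a log2 ratio of -1.39, and with a correction for mean FPKM, at -1.29. Ptpn2 accounted for 61.0% of the summed phosphatase FPKM in WT and 42.3% in STAP-1 KO.

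Pias1, which encodes a SUMO ligase that acts on activated STAT factors, is on chromosome 9 (62878368 to 62987924, minus strand). It had 21.7 FPKM in WT and 24.8 FPKM in STAP-1 KO, a ratio of 1.14 (counting interval 1.05 to 1.24). Of its relatives, Pias2 had 25.5 and 24.8 FPKM and Pias4 25.5 and 25.3 FPKM, while Pias3, an inhibitor of STAT3, was 2.85-fold lower in STAP-1 KO with 7.67 and 2.69 FPKM.

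**Figure D3:**
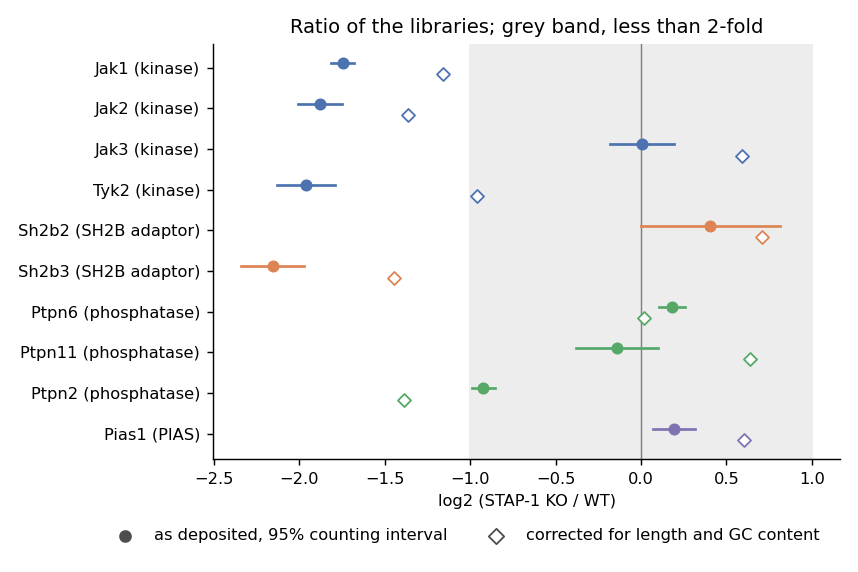
Log2 of STAP-1 KO over WT for the 10 genes, without a pseudocount (filled circles, bars are 95% counting intervals) and with length and GC content corrected for (open diamonds). As deposited 4 genes lie left of the grey band of less than 2-fold, and after the correction Tyk2 is at -0.96 and Ptpn2 at -1.39.

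Because kinases and phosphatases differed unequally, their balance within each library shifted. The 4 kinases summed to 276 FPKM in WT and 89.7 FPKM in STAP-1 KO, and the 3 phosphatases to 397 and 302 FPKM. For each FPKM of phosphatase mRNA there were 0.695 FPKM of kinase mRNA in WT and 0.297 in STAP-1 KO. The kinases have longer transcripts than Ptpn6 and Ptpn2, and with the length and GC correction, added after the values were seen, the ratio in STAP-1 KO was 0.545. There was 3.07 times as much Ptpn6 as Jak2 in WT and 12.8 times as much in STAP-1 KO, and 1.34 and 2.36 times as much Ptpn2 as Jak1. With the correction these ratios in STAP-1 KO were 8.01 for Ptpn6 over Jak2 and 1.14 for Ptpn2 over Jak1, the latter below its WT value. Between Jak2 and the adaptor Sh2b3, both lower, the ratio was 1.38 and 1.67. These are ratios of mRNA and do not measure kinase or phosphatase activity.

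The order of the levels also changed. In WT it ran from Ptpn2 through Jak1, Ptpn6, Jak2, Sh2b3, Tyk2, Pias1, Jak3 and Ptpn11 to Sh2b2, and the counting intervals of neighbours overlapped only for Sh2b3 and Tyk2. In STAP-1 KO it ran from Ptpn6 through Ptpn2, Jak1, Pias1, Jak3, Jak2, Tyk2, Sh2b3 and Ptpn11 to Sh2b2. There the intervals overlapped for Jak3 and Jak2, for Tyk2 and Sh2b3, and for Ptpn11 and Sh2b2. Jak2 stood above Pias1 and Jak3 in WT and below both in STAP-1 KO.

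Transcript length moved with the ratio across all genes, and the 10 genes were therefore set beside genes of like length. Across 10863 genes whose mean reached 1 FPKM, Spearman's rho between log2 ratio and transcript length was -0.40, given as a description because genes share the same pair of libraries. Jak1, Jak2 and Tyk2 have transcripts of 4906, 5030 and 4828 bases and fall in 1 bin of 543 genes, whose median log2 ratio was -0.67 and of which 36.8% were at least 2-fold lower. The log2 ratios of -1.75, -1.87 and -1.95 of these kinases lay below the lower quartile of that bin, -1.42. Sh2b3 (4195 bases) had -2.14 in a bin with a median of -0.35, of which 29.7% were lower.

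Jak3, with 4019 bases, had a log2 ratio of 0.01 where genes of like length had a median of -0.22. Pias1 (5564 bases) and Ptpn11 (5599 bases) are longer than the lower kinases, yet had log2 ratios of 0.19 and -0.14 in a bin with a median of -0.65. Ptpn2, with 2667 bases, had -0.92 in a bin with a median of 0.13, below its lower quartile of -0.56. Ptpn6 (2308 bases) had 0.18 beside a median of 0.26.

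When the medians of genes of like length and then of like GC content were subtracted, Jak1 was at -1.16, Jak2 at -1.36, Sh2b3 at -1.45 and Ptpn2 at -1.39. Tyk2 was at -0.96, short of the cut-off of -1 on this scale, and the median of the 4 kinases was -1.06. Jak3 (0.59), Sh2b2 (0.71), Ptpn11 (0.64) and Pias1 (0.60) were above 0, and Ptpn6 was at 0.02. The correction thus left 4 genes past the cut-off, with Ptpn2 in the place of Tyk2.

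**Figure D4:**
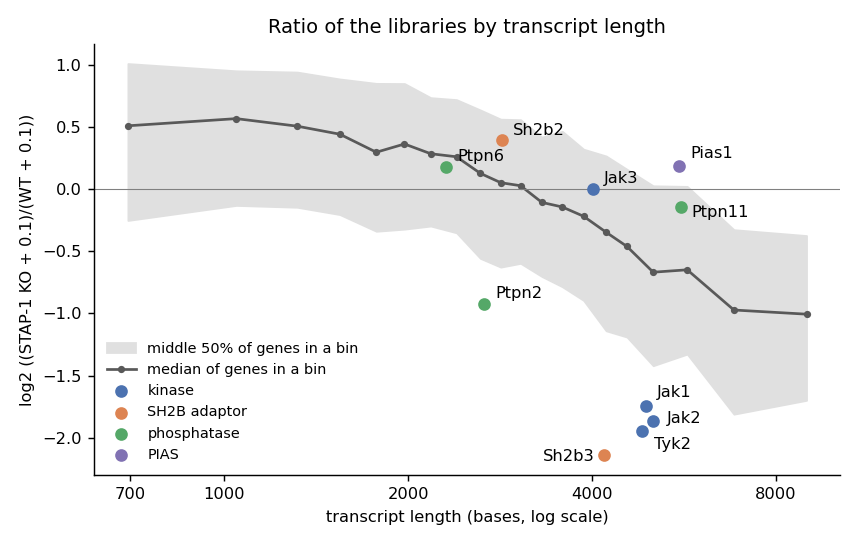
Log2 ratio of STAP-1 KO over WT against transcript length in bases (log axis), with the median (line) and the middle 50% (grey) of genes in 20 bins of like length, and the 10 genes as coloured points. Jak1, Jak2, Tyk2, Sh2b3 and Ptpn2 lie below the grey area and Pias1 above it, at 0.19.

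The promoter windows of 9 members (RefSeq, GRCm38.p6, from 250 bases before to 50 after a start) were searched for the letters TTCNNNGAA, which on the opposite strand give the same pattern and are the core of STAT sites. None of the 9 windows held them, beside 8.30% of 32851 windows of all genes. The number of CG dinucleotides did not separate the genes that were lower (Jak1 29, Jak2 44, Tyk2 23, Sh2b3 9) from the others (Jak3 9, Ptpn6 8, Pias1 28, Sh2b2 29, Ptpn11 37). No match says only that these letters are not in these windows.

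The other genes of the pathway were taken from 11 lists of 86 genes. Of the 80 compared, 33 (41.2%) were at least 2-fold lower and 8 (10%) at least 2-fold higher in STAP-1 KO, beside 22.9% and 12.3% of all genes compared. Those whose mean reached 1 FPKM, 72 genes, had a median log2 ratio of -0.72. Neither these counts nor this median are corrected for length. The length and GC correction moved the medians of some lists close to 0. For the CBL and UBASH3 genes the median went from -0.94 to 0.02 and for the STAT genes from -0.72 to 0.06. For the receptor-type phosphatases it went from -1.01 to -0.22, while for the receptors that use JAK3 with JAK1 it went from -1.95 to -1.69. Of the genes named below as lower, the correction ended the calls of Ubash3b (-0.59), Ptprj (-0.56), Il6st (-0.63) and Stat2 (-0.70). Those of Stat5b (-0.31), Stat6 (-0.88), Pecam1 (-0.90) and Sos2 (-0.99) ended as well.

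**Figure D5:**
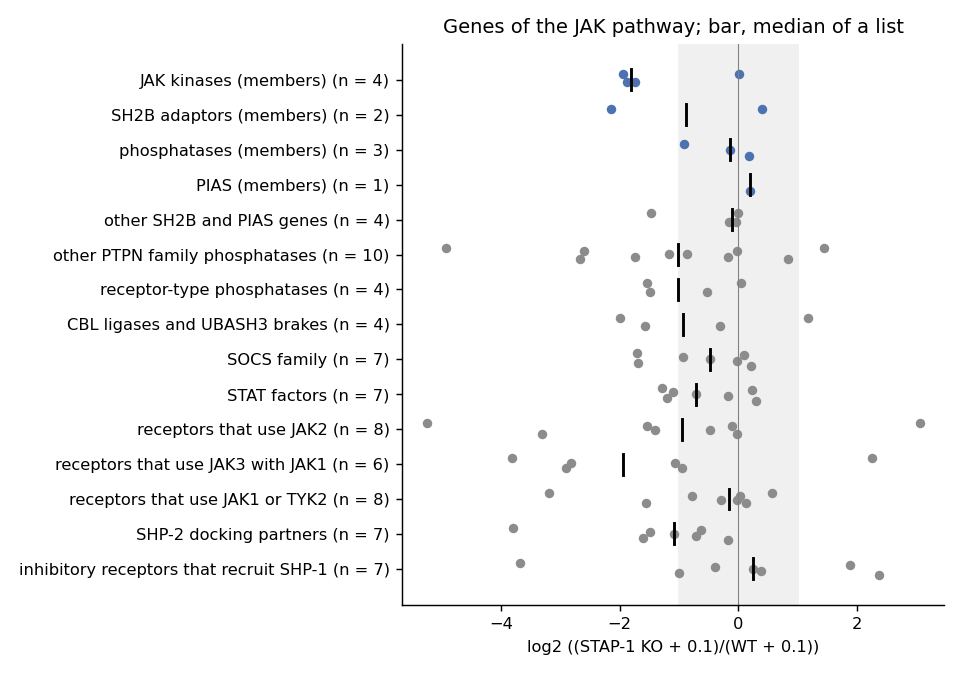
Log2 ratio of STAP-1 KO over WT of each gene whose mean reached 1 FPKM, by list, with the 10 members in blue, other genes in grey, the median of each list as a bar and the range below 2-fold shaded. The bar of the receptors that use JAK3 with JAK1 lies furthest to the left, at -1.95, and that of the inhibitory receptors that recruit SHP-1 furthest to the right of the lists without members, at 0.25.

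Among receptors that signal through JAK2, 4 of 10 compared genes were lower and 1 was higher. Csf2rb, the β chain of the IL-3, IL-5 and GM-CSF receptors, had 260 FPKM in WT and 26.2 FPKM in STAP-1 KO, and its close copy Csf2rb2, the IL-3 β chain, 238 and 6.17 FPKM. Reads of these copies may be divided between them, so their separate values are uncertain. Csf3r, the G-CSF receptor gene, had 1.51 and 13.3 FPKM. Epor, the erythropoietin receptor gene, had 28.8 and 28.5 FPKM.

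Receptors of the Jak1 and Jak3 pair had 4 of 6 genes lower and 1 higher, although Jak3 itself was level as deposited. Il4ra, which binds JAK1 for IL-4, had 112 and 14.9 FPKM and Il9r 6.91 and 0.399 FPKM, while Il21r had 1.89 and 9.36 FPKM. The common γ chain gene Il2rg, which binds JAK3, was 2.10-fold lower, with 626 and 298 FPKM.
Of the receptors that use JAK1 or TYK2, 2 of 8 were lower, Il10ra (73.1 and 7.91 FPKM) and the gp130 gene Il6st (4.35 and 1.42 FPKM), and 0 were higher.

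Among the other PTPN phosphatases, 6 of 12 compared genes were lower and 1 was higher. Ptpn13, a large phosphatase with PDZ domains, had 17.2 and 0.473 FPKM and Ptpn9 53.5 and 8.31 FPKM, and Ptpn22, a brake on lymphocyte receptor signaling, had 3.86 and 10.7 FPKM. Ptpn1, the nearest relative of Ptpn2, whose product dephosphorylates JAK2 and TYK2, had 26.6 and 23.6 FPKM and was 1.13-fold lower. Of the receptor-type phosphatases, Ptprc, which encodes CD45 and acts on JAKs and SRC kinases, had 107 and 38.2 FPKM and Ptprj 4.21 and 1.39 FPKM, 2 of 4 lower.

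Among the partners of SHP-2, 4 of 9 were lower and 1 was higher. The higher one, Frs3, had 0.113 and 0.297 FPKM on about 1.6 and 6 estimated reads, with a counting interval that included equality. Gab2, the docking protein through which SHP-2 reaches BCR-ABL and cytokine receptors, had 52.3 FPKM in WT and 3.66 FPKM in STAP-1 KO, a 14.3-fold lower level. Ptpn11 was near level as deposited. With the length and GC correction the log2 ratio was -3.16 for Gab2 and 0.64 for Ptpn11. Sos2, an exchange factor for RAS, had 11.6 and 4.08 FPKM. Of the receptors that recruit SHP-1, 2 of 8 compared were lower and 3 higher, with Lilrb3 at 90.5 and 7.01 FPKM, Pecam1 at 46.9 and 23.4 FPKM, Clec12a at 14.2 and 52.7 FPKM and Cd72 at 27.3 FPKM in STAP-1 KO, 5.26-fold higher. The other higher gene, Siglece, had 0.569 and 1.16 FPKM on about 7 and 20 estimated reads, with a counting interval that included equality.

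The further brakes and targets of the kinases were mixed as well. Of the SOCS family, whose members are induced by STATs and inhibit JAKs, 3 of 8 were lower and 0 higher, among them Cish (432 and 133 FPKM) and Socs1 (78.2 and 24.1 FPKM). Of the ubiquitin ligase and UBASH3 genes, Cblb (6.98 and 1.69 FPKM) and Ubash3b (29.5 and 9.88 FPKM) were lower and Ubash3a was higher, with 4 compared. Of the STAT genes, 3 of 7 were lower and 0 higher, among them Stat2 (10.8 and 4.38 FPKM) and Stat6 (87.1 and 37.7 FPKM). Of the STAT5 genes, named after their values were seen, Stat5b was 2.15-fold lower, with 27.8 and 12.9 FPKM and a corrected log2 ratio of -0.31 that did not pass, and Stat5a had 20.8 and 18.3 FPKM.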

How the data were processed

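Total RNA was amplified with a SMART-Seq v4 low-input kit, and reads were single, of 75 bases. The authors used TopHat 2.0.13 and Bowtie2 2.2.3 on mm10, with SAMtools (1.0 in the methods, 0.1.19 in the submitters' processing notes), and deposited FPKM values from Cuffnorm 2.2.1. The annotation, read totals and scaling between libraries are not given in the sources used here.

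Ratios were computed in pandas 2.3.3 and numpy 2.4.6 and intervals in scipy 1.17.1, under Python 3.11.15. A gene was counted as lower or higher at a ratio of at least 2, without a pseudocount, with at least 0.1 FPKM in both libraries. Log2 ratios used a pseudocount of 0.1 FPKM. Medians and the correction (20 bins of transcript length, then of GC content) used genes whose mean reached 1 FPKM. With 1 library per genotype no test was made.

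Lengths and positions came from GENCODE M21 (GRCm38, the longest coding transcript), to which 20911 symbols matched as written and 1915 through an older symbol, with 458 unmatched. Depth was the value at which most FPKM below 0.3 in genes with 1 transcript were whole reads. Within 0.02 of a whole read lay 55.6% of 313 WT values and 55.0% of 391 STAP-1 KO values, against 4% by chance. Cuffnorm's scaling may be part of it. Estimated reads are FPKM times length (less 216 bases in WT and 208 in STAP-1 KO) times depth. Counting intervals (95%, exact binomial) do not cover mice, sorts or libraries, and PCR copies are not independent molecules. The scripts were tested on simulated data.

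The members and lists were chosen with earlier results of these data known. Named genes beyond the members are Stap1, Kit and Ly6a, the nearest relatives of members, and up to 2 genes per direction and list past the cut-off, of at least 1 FPKM in the higher library, that ranked first by log2 ratio when 1 FPKM was added. Epor, Il2rg, Hlf, Frs3, Siglece, the overlapping genes and the genes of the closing section were added after their values were seen. Alternative floors, pseudocounts, scalings, corrections and cut-offs were tried. No protein sequences were used here. Some genes of the lists are not reported here.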

Additional observations from a re-analysis of the deposited data

How the results depend on the processing

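The count of 4 lower genes held under the 3 other floors, the 4 other scalings, the length and GC correction and the demand that the counting interval lie past 2-fold, although that correction put Ptpn2 in the place of Tyk2. It was 5 with Ptpn2 added at a cut-off of 1.5 and with a correction for mean FPKM. At a cut-off of 4 it was 1 (Sh2b3). The count of higher genes was 0 under each of these alternatives. The median log2 ratio of the kinases was -1.06 with the length and GC correction, -1.94 with that for mean FPKM and -1.70 with libraries scaled to equal summed FPKM. The cause of these shifts was not tested. The other scalings moved the median of all genes to between -0.11 and 0.06. The ratio of summed kinase to phosphatase FPKM was 0.573 in WT and 0.254 in STAP-1 KO without Jak2, and 1.11 and 0.672 without Ptpn6. With the length and GC correction, an alternative chosen after seeing the data, it was 0.545 in STAP-1 KO. Estimated reads in place of FPKM gave Jak3 4.25% of the kinases in WT and 13.4% in STAP-1 KO. Over all alternatives the log2 ratio ranged from -2.11 to -1.16 for Jak1, from -1.96 to -1.36 for Jak2, from -2.01 to -0.96 for Tyk2, from -2.21 to -1.45 for Sh2b3 and from -1.39 to -0.82 for Ptpn2. It lay on both sides of 0 for Jak3, Ptpn6 and Ptpn11. No paired analysis was possible because each genotype has 1 library, and for the same reason no library could be left out. Values of a few FPKM, such as those of Sh2b2 and Ptpn11, are limited by depth.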

Other observations

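Values of genes known from lymphocytes are given here beside Jak3, which was level as deposited. Those named were chosen after their values were seen. The SRC-family kinase gene Lck had 11.8 FPKM in WT and 41.9 FPKM in STAP-1 KO, on about 174 and 867 estimated reads, and the T cell receptor component Cd3g had 1.80 and 5.04 FPKM on about 11 and 43. Of the other T cell markers, Cd4 had 0.139 and 0.463 FPKM, Cd8a 0.369 and 0.132 FPKM and Cd3e 0.869 and 1.09 FPKM, each on under 15 estimated reads in either library and with a counting interval that included equality. The NK cell markers Ncr1, Klrb1c and Eomes were below 1 FPKM in WT and below 0.1 FPKM in STAP-1 KO. Ptpn22, whose product dephosphorylates LCK, was 2.78-fold higher and Ubash3a 2.27-fold higher. The lymphoid cytokine receptor gene Il7r was lower, with 11.6 FPKM in WT and 1.56 FPKM in STAP-1 KO, and Il2rb, 1.98-fold lower, fell short of the cut-off.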
